A study of Mus musculus with 60 samples.

Results

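The mRNAs of 9 enzymes that make serine and pass its carbon to folate were followed in mouse heart: Phgdh, Psat1 and Psph of serine synthesis, Shmt1 and Shmt2, and the folate enzymes Mthfd1, Mthfd1l, Mthfd2 and Aldh1l2. They were found by gene symbol among 53700 gene rows of the deposited table, all 9 had a row, and all 9 were among the 18119 genes with enough counts to be tested. The enzymes were chosen by pathway after values of these data, the daily rhythm of Mthfd1l among them, had been seen, and which values led to each name is not recorded. Counts over the 9 therefore describe them and are not independent evidence of a direction, and the p-values of single genes do not account for the choice. Hearts came from male C57BL/6 mice, 12 weeks old at collection, of 2 genotypes. In dnOGAh mice a tetracycline-responsive transgene for EGFP and a rat splice variant of O-GlcNAcase, which acts as a dominant negative, was switched on by a reverse tetracycline transactivator under the α-myosin heavy chain promoter, which is active in cardiomyocytes. CON mice were littermates that carried the αMHC-rtTA transactivator alone. Both genotypes received doxycycline, a 100 µg injection at 10 weeks of age and then a diet with 1 g/kg for 2 weeks. The drug and the transactivator are thus shared, and the responsive transgene, with its EGFP and O-GlcNAcase variant, is not. Under 12 h of light and 12 h of dark, 5 hearts of each genotype were collected at each of 6 times, every 4 h from lights on (zeitgeber time 0, ZT0), which gave 30 libraries a genotype.

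O-GlcNAcase removes a single sugar from serine and threonine residues of proteins, and its loss raises this modification. Serine is built from the glycolytic intermediate 3-phosphoglycerate in a short chain of reactions, by phosphoglycerate dehydrogenase (Phgdh), phosphoserine aminotransferase (Psat1) and phosphoserine phosphatase (Psph). Serine hydroxymethyltransferases then move a carbon from serine to tetrahydrofolate, in the cytosol (Shmt1) and in mitochondria (Shmt2). In mitochondria that carbon is oxidised and released as formate or carbon dioxide by Mthfd2, Mthfd1l and Aldh1l2, and in the cytosol Mthfd1 takes formate up again for the synthesis of purines, thymidylate and methionine. The chain is known for being low in most adult tissues and high in proliferating cells, and several of its genes are targets of the stress-responsive transcription factor ATF4.

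Libraries held 9162859 to 82938039 counts in genes for CON (median 18012099) and 14540266 to 54766622 for dnOGAh (median 27845514). Levels are given as CPM, counts per 1000000, after scaling by the trimmed mean of M values (TMM). Cardiomyocyte markers were abundant in every library, with a sum over 14 markers of 47234 to 104931 CPM in CON and 25330 to 121821 in dnOGAh. The library labelled dnOGAh ZT12 replicate 3 had 70.1 CPM of Oga, within the CON range of 46.7 to 72.2 and below the 182 to 837 of the other 29 dnOGAh libraries. In the ZT4 replicate 4 libraries 77.6% (CON) and 66.0% (dnOGAh) of counts were mitochondrial, where the medians were 30.7% and 17.2%. For the enzymes, the fold changes, the counts of calls, the daily amplitudes and the correlations between hearts were also computed without these 3 libraries. The group means behind those correlations still included them. Other results below used every library unless stated. Among these are the marker sums, the other gene lists, the order per exon length, the ranges and their overlaps, and the likeness of profiles.

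Of the serine synthesis genes, Phgdh and Psat1 were several-fold higher in dnOGAh hearts, and Psph was at the same level in both genotypes within its error. Phgdh, the entry enzyme of the pathway, ranged from 0.0541 CPM (lowest) through 1.41 (median) to 3.87 (highest) in 30 CON hearts, and from 1.79 through 6.05 to 11.6 in 30 dnOGAh hearts. Nearly all dnOGAh hearts, 28 of 30, lay above the highest CON heart. Averaged over the 6 times, the log2 fold change was 1.97 (SE 0.16, edgeR quasi-likelihood, adjusted p = 4.56e-16). The highest CON values were found at ZT12, where Phgdh read 3.83, 1.52, 3.87, 3.15 and 2.94 CPM against 8.28, 5.91, 4.52, 6.94 and 5.19 in dnOGAh. The groups did not overlap at that time, and the log2 fold change was 1.02 (SE 0.38, adjusted p = 0.0325), the smallest of the 6 times.

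Psat1, the transaminase of the middle step, ranged from 0.730 through 2.54 to 4.33 CPM in CON and from 3.48 through 11.6 to 20.4 CPM in dnOGAh. All but 1 of the dnOGAh hearts lay above every CON heart, and the exception was the ZT12 library whose Oga was in the CON range. Its log2 fold change of 2.28 (SE 0.13, adjusted p = 7.13e-23) was the largest of the 9. Psph, the phosphatase that releases serine, ranged from 2.83 through 6.57 to 11.0 CPM in CON and from 4.95 through 6.58 to 8.12 in dnOGAh. The ranges lay on top of each other, with a log2 fold change of -0.0044 (SE 0.074, adjusted p = 0.962). In GENCODE M21, 452 of the 4329 exon bases of Psph are shared with Cct6a on the opposite strand, and the strand setting of the counting is not given in the sources used here.

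**Figure D1:**
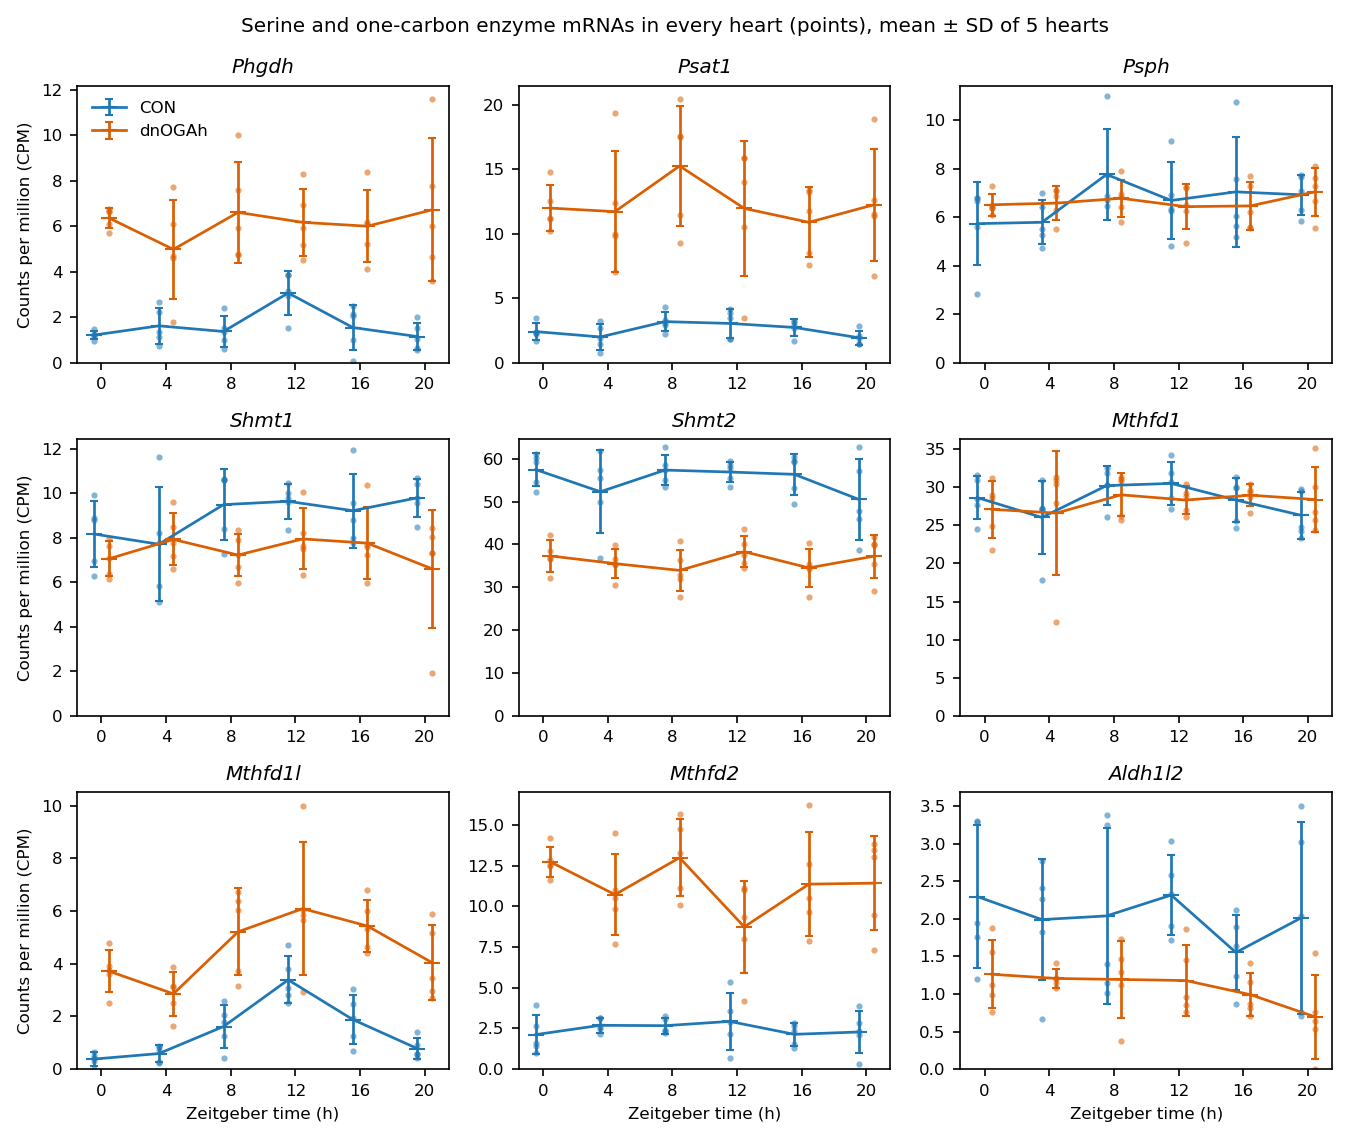
Level of each of the 9 enzyme mRNAs in CPM (vertical axes, from 0) against zeitgeber time in h. Each point is 1 heart, and lines join the means of 5 hearts with SD bars, for CON (blue) and dnOGAh (orange). Phgdh, Psat1, Mthfd2 and Mthfd1l lie higher in dnOGAh, Shmt2 lies lower, and in CON the Mthfd1l mean is highest at ZT12.

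Both serine hydroxymethyltransferases were lower in dnOGAh hearts, by less than the rise in Phgdh and Psat1. Shmt2, the mitochondrial enzyme, ranged from 36.9 through 57.2 to 62.8 CPM in CON and from 27.7 through 36.0 to 43.7 in dnOGAh. The ranges met at their edges: 28 of 30 CON hearts were above every dnOGAh heart, and 18 of 30 dnOGAh hearts were below every CON heart. The log2 fold change was -0.61 (SE 0.047, adjusted p = 3.09e-17), and it passed the test at each of the 6 times with values from -0.76 to -0.44. Shmt1, the cytosolic enzyme, ranged from 5.11 through 9.22 to 11.9 CPM in CON and from 1.94 through 7.53 to 10.4 in dnOGAh. These ranges overlapped widely, with a log2 fold change of -0.28 (SE 0.084, adjusted p = 0.00228). Among single times Shmt1 passed the test at ZT20, where CON hearts read 10.7, 9.81, 10.4, 9.58 and 8.50 CPM and dnOGAh hearts 8.44, 1.94, 7.31, 8.05 and 7.32. The heart at 1.94 CPM carried that call: the ZT20 log2 fold change was -0.57 (adjusted p = 0.0233) with it and -0.33 (adjusted p = 0.121) without it. In GENCODE M21 Shmt1 shares 184 exon bases with Smcr8 and Shmt2 shares 32 with Ndufa4l2, each on the opposite strand.

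The enzymes of the mitochondrial folate arm split, with Mthfd2 and Mthfd1l higher and Aldh1l2 lower in dnOGAh hearts. Mthfd2, the dehydrogenase and cyclohydrolase, ranged from 0.292 through 2.43 to 5.36 CPM in CON and from 4.21 through 11.1 to 16.2 in dnOGAh. A single heart of each genotype fell inside the range of the other, and on the dnOGAh side it was again ZT12 replicate 3. Mthfd2 had a log2 fold change of 2.21 (SE 0.14, adjusted p = 1.24e-20), which at single times ran from 1.62 at ZT12 to 2.54 at ZT0. Mthfd1l, the mitochondrial ligase that frees formate, ranged from 0 through 0.896 to 4.73 CPM in CON and from 1.64 through 4.16 to 10.0 in dnOGAh. Its ranges overlapped, with 13 of 30 dnOGAh hearts above the highest CON heart, fewer than for the other 3 raised genes, and 19 of 30 CON hearts below the lowest dnOGAh heart. Over the day its log2 fold change was 2.00 (SE 0.17, adjusted p = 4.53e-16).

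Aldh1l2, which oxidises the formyl group to carbon dioxide and yields NADPH, ranged from 0.673 through 1.93 to 3.51 CPM in CON and from 0 through 1.12 to 1.88 in dnOGAh. The ranges overlapped, although 17 of 30 CON hearts lay above every dnOGAh heart. The log2 fold change was -0.93 (SE 0.19, adjusted p = 2.77e-05), below 0 at 6 of 6 times and past the test at ZT20 alone (-1.55, adjusted p = 0.00768). That ZT20 call was lost with replicate 4 left out (adjusted p = 0.0723) or replicate 5 left out (adjusted p = 0.0686). The call was kept without replicate 2, whose dnOGAh heart had 0 reads of Aldh1l2 and was also the low one for Shmt1. Of the 7503 exon bases of Aldh1l2, 1056 are shared with D10Wsu102e on the opposite strand. Without the strand setting it is not known whether reads there were counted for a gene or set aside as ambiguous. Mthfd1, the cytosolic enzyme with all 3 folate activities, ranged from 17.9 through 29.1 to 34.2 CPM in CON and from 12.4 through 28.9 to 35.2 in dnOGAh. The genotypes coincided, with a log2 fold change of -0.015 (SE 0.057, adjusted p = 0.824).

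**Figure D2:**
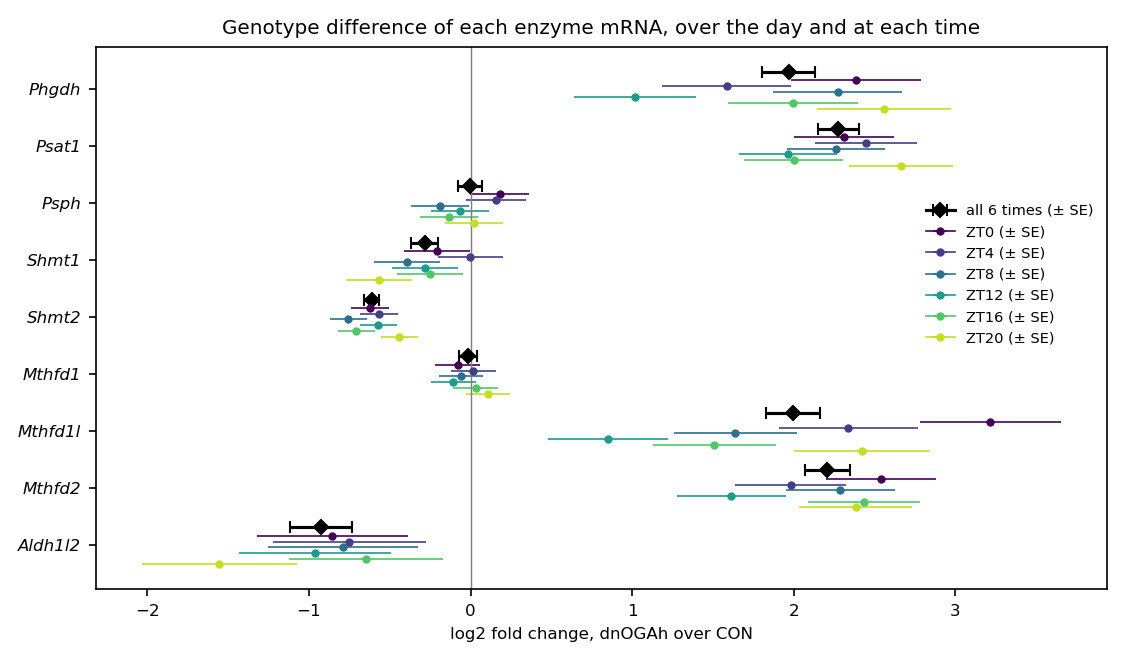
The log2 fold change of dnOGAh over CON (horizontal axis) for each enzyme mRNA, over all 6 times (black diamonds, 30 hearts a genotype) and at each time (coloured points, 5 hearts a genotype), with SE bars. Phgdh, Psat1, Mthfd1l and Mthfd2 lie to the right of 0 at every time and Shmt2 to the left, while Psph and Mthfd1 straddle 0.

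Counted over the 9 genes, 4 were higher in dnOGAh hearts and 3 lower, and 2 did not pass the test. Of all 18119 genes tested, 38.8% were called higher and 31.9% lower, so that a call in either direction was common in this comparison. All 4 raised members exceeded a 2-fold difference, which 17.8% of the tested genes did. The median log2 fold change was -0.0044 over the 9 members and 0.06 over all genes. Psat1, Phgdh and Mthfd2 were called higher at each of the 6 times, as were 13.2% of tested genes, and Shmt2 was called lower at each, as were 9.33%. Mthfd1l was called at 5 times, and at ZT12 its log2 fold change was 0.85 (SE 0.37, adjusted p = 0.0719). Without dnOGAh ZT12 replicate 3 the ZT12 value was 1.02 (adjusted p = 0.025). The ZT12 call of Phgdh in turn was lost when replicate 2, 4 or 5 was left out (adjusted p = 0.13, 0.0729 and 0.0902).

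At single times, 4 members were higher at ZT0, ZT4, ZT8, ZT16 and ZT20 and 3 at ZT12, where the share of all tested genes called higher was 23.7%, 18.5%, 24.9%, 23.1%, 23.6% and 18.8%. Shmt2 alone was lower at ZT0, ZT4, ZT8, ZT12 and ZT16, and at ZT20 Shmt1 and Aldh1l2 were lower with it. The share of all tested genes called lower was 18.9%, 14.2%, 21.2%, 13% and 17.7% at the former times and 16.3% at ZT20. No member separated all 30 dnOGAh from all 30 CON hearts. Over the tested genes, 0.938% lay wholly above and 0.121% wholly below in this way.

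On a scale per length of exon sequence (mean CPM per kilobase of the GENCODE M21 exon union), the order of the enzymes in CON hearts was led by Shmt2 at 17.7 ± 2.06 (SD, n = 30) and Mthfd1 at 6.38 ± 0.774. Shmt1 followed at 2.32 ± 0.428 and Psph at 1.54 ± 0.377. Mthfd2 at 0.709 ± 0.296, Phgdh at 0.667 ± 0.383 and Psat1 at 0.598 ± 0.208 lay within 1 SD of each other, and so did Mthfd1l at 0.324 ± 0.272 and Aldh1l2 at 0.271 ± 0.117. In dnOGAh hearts Shmt2 at 11.6 ± 1.34 and Mthfd1 at 6.32 ± 0.905 were again first. They were followed by Mthfd2 at 3.25 ± 0.783, Psat1 at 2.90 ± 0.934 and Phgdh at 2.47 ± 0.776, which again lay within 1 SD of their neighbours, and then by Shmt1 at 1.91 ± 0.385 and Psph at 1.53 ± 0.181. Phgdh and Shmt1 were also within 1 SD of each other, as were Shmt1 and Psph. Mthfd1l at 1.03 ± 0.399 and Aldh1l2 at 0.145 ± 0.0581 came last, and these last 2 no longer lay within 1 SD of each other.

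The sequence just upstream of the start site is shown for the 4 genes that were higher, as RefSeq gives it on GRCm38.p6, a build that precedes the GRCm39 of the counts. The 250 bases are those of Phgdh at chr3:98339970-98340219 (minus strand), Psat1 at chr19:15925060-15925309 (minus), Mthfd2 at chr6:83317605-83317854 (minus) and Mthfd1l at chr10:3972825-3973074 (plus). They run 5′ to 3′ toward the gene, and capitals mark the CCAAT box, written CCAAT or, on the other strand, ATTGG.
Phgdh: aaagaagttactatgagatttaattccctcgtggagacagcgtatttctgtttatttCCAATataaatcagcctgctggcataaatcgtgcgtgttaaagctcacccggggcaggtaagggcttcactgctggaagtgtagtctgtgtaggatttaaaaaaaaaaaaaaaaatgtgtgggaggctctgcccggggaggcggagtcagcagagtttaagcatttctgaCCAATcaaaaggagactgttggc
Psat1: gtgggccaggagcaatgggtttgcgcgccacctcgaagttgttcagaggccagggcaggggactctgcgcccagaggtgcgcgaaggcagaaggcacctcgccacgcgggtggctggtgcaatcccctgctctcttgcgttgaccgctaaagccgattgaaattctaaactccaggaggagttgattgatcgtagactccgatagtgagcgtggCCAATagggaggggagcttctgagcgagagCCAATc
Mthfd2: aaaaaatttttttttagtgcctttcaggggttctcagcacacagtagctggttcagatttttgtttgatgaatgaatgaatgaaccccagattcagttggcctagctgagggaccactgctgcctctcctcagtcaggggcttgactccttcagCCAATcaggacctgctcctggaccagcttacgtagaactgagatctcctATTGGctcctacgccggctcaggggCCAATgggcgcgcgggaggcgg
Mthfd1l: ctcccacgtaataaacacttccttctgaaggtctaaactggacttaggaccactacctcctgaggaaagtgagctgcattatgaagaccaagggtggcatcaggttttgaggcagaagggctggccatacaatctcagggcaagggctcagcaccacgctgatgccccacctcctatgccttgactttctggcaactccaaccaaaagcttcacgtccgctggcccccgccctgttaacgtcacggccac
Phgdh and Psat1 each held 2 CCAAT boxes and Mthfd2 held 3, while the Mthfd1l window held none. The motif was chosen after these sequences had been read. RefSeq windows of this length matched 8 of the 9 members, and a CCAAT box was found in 6 of the 8: beside the 3 above, Psph held 2 and Shmt1 and Mthfd1 held 1 each, and Shmt2 held none. Among 32851 promoters 33.8% held it. The E-box CACGTG, the D-box TTATGTAA and the C/EBP-ATF core TGATGNAA, searched on both strands, were found in 0 of the 8 windows and in 6.02%, 0.819% and 3.45% of all. The ROR/REV-ERB half-site AGGTCA was found in Mthfd1 alone and in 14% of all. Letters in this window do not show whether a factor binds, here or elsewhere.

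Among the 9 genes, Mthfd1l varied most over the day. Since it was named with its rhythm in view, its daily course is given here as a description and without a test. Calls of Mthfd1l counted further on are not evidence of a rhythm. In CON hearts it read 0.493, 0.308, 0, 0.440 and 0.667 CPM at ZT0 and 2.80, 4.73, 3.08, 2.53 and 3.81 at ZT12, lights off. The ZT12 hearts all lay above the ZT0 hearts. In dnOGAh hearts it read 3.63, 3.78, 3.92, 2.51 and 4.78 CPM at ZT0 and 10.0, 6.04, 2.93, 5.65 and 5.85 at ZT12, where the heart at 2.93 was replicate 3. The highest group mean was 8.88-fold the lowest in CON and 2.13-fold in dnOGAh, and the gap between genotypes was widest at ZT0 (log2 fold change 3.22, SE 0.44) and narrowest at ZT12. A cosine fit placed the peak at 12.5 h in CON and 13.4 h in dnOGAh. Of all tested genes, 4, itself included, had a log2 amplitude in CON at or above that of Mthfd1l, and the median gene had 0.155.

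The other 8 enzymes gave no rhythm that passed by edgeR or by JTK cycle, the rank test for 24 h rhythms. The calls of Mthfd1l below repeat what led to its choice, so they are counted beside the background and nothing is read from them. By JTK cycle at q under 0.05, 0 of the other 8 were called in either genotype, and with Mthfd1l the count was 1 in CON (2.08% of tested genes) and 0 in dnOGAh (0.171%). At a p adjusted over phases alone the other 8 again gave 0, and with Mthfd1l the count was 1 in CON (11.5% of tested genes) and 1 in dnOGAh (3.67%). The edgeR test of any difference between times called 0 of the other 8, and with Mthfd1l 1 in CON (1.18% of tested genes) and 0 in dnOGAh (0.375%). At an unadjusted p under 0.05 it gave Phgdh and Mthfd1l in CON (2 members, 11% of tested genes) and Mthfd1l in dnOGAh (1 member, 8.36%). Phgdh had the next largest log2 amplitude in CON, 0.43 (SE 0.25), with its highest mean at ZT12 (3.06 ± 0.954 CPM) and its lowest at ZT20 (1.15 ± 0.610, SD, n = 5). By edgeR its time effect gave an adjusted p of 0.201, and DESeq2 placed it past the threshold. The interaction of genotype and time was called for 0 of the 9 and 0 of all tested genes in edgeR and in DESeq2 for 0 of the 9, and at an unadjusted p under 0.05 for 0 of the other 8, for Mthfd1l and for 2.57% of all. A difference of the 24 h cosine between genotypes was called for 0 of the other 8 by edgeR and by DESeq2. For Mthfd1l the call turned on the setting: edgeR as fitted here called 0 members (0.0166% of tested genes), while DESeq2, edgeR with no filter on low counts and edgeR without the 3 libraries that stood apart each called 1, Mthfd1l. At an unadjusted p under 0.05 edgeR gave 1 member, Mthfd1l, and 3.33% of all.

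Across the 12 means of genotype and time, the genes with profiles most like Mthfd1l were Icosl (Pearson r = 0.98), Yipf1 (0.97) and Cdc42ep4 (0.96), among 10391 genes of at least 5 CPM on average. Their own cosine peaks in CON lay at 12.2 h, 12.7 h and 12.8 h, with log2 amplitudes of 0.37, 0.21 and 0.33. The genes most like Phgdh were Vcan (0.98), a matrix proteoglycan, Nt5c (0.98) and Emp3 (0.98). Those most like Mthfd2 were Loxl3, Rab3il1 and Pik3cd, each at 1.00 to 2 decimals. The points of each r are 12 group means from the same libraries, and for Phgdh and Mthfd2 they form a low and a high set by genotype.

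Within the dnOGAh genotype the raised enzymes varied together from heart to heart. For each heart the deviation of log2 CPM from the mean of its 5-heart group was taken, so that genotype and time drop out. These relations were chosen after the values had been seen. The permutations here and for the markers below moved hearts across times. Deviations within a group are tied to its mean, so these p-values tend to be too small, which matters most near the threshold. Where hearts are left out, here and for the markers, the group means still included them. The other hearts of such a group therefore kept the shift that the left-out heart gave its mean. Over the 30 dnOGAh hearts, Psat1 and Mthfd2 gave Pearson r = 0.81 (permutation p adjusted over 72 relations 0.00036) and Spearman rho = 0.74 (adjusted p 0.00108), and r = 0.68 without the 2 hearts farthest from the median in Psat1. Psat1 and Mthfd1l gave r = 0.78 (adjusted permutation p 0.00036), rho = 0.71 (adjusted p 0.00072) and r = 0.72 without the 2 farthest. All 6 pairs among Phgdh, Psat1, Mthfd2 and Mthfd1l had r from 0.55 to 0.81, and 5 of the 6 passed by r and rho alike. The share of other gene pairs with an r as high was not computed. The values therefore do not show a link particular to these enzymes. Without the 2 dnOGAh libraries named above, but with the group means unchanged, the 6 values ran from 0.42 to 0.78. Over 30 CON hearts, where these genes had far fewer counts, the 6 values ran from -0.040 to 0.41 and 0 pairs passed. Shmt2 deviated opposite to Mthfd1l and Mthfd2. With Mthfd1l it gave r = -0.57 (adjusted permutation p 0.0146), rho = -0.64 (adjusted p 0.00432) and r = -0.54 without the 2 farthest. With Mthfd2 it gave r = -0.57 (adjusted permutation p 0.0146), rho = -0.52 (adjusted p 0.0425) and r = -0.51 without the 2 farthest. With Psat1 its r of -0.47 did not pass (adjusted permutation p 0.0596), and with Phgdh r was 0.027.

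The same deviations moved with the markers of other cell types. With the summed level of 12 macrophage and monocyte markers, Psat1 gave r = 0.81 (permutation p adjusted over 108 relations 0.000154) and rho = 0.62 (adjusted p 0.00301), and r = 0.72 without the 2 hearts farthest in the marker sum, which are the 2 libraries named above. Phgdh gave r = 0.79 and rho = 0.69 (adjusted permutation p 0.000154 and 0.00108), and r = 0.73 without the 2. Mthfd1l gave r = 0.78 and rho = 0.69 (adjusted permutation p 0.000154 and 0.0013), and r = 0.68 without the 2. Mthfd2 gave r = 0.67 and rho = 0.66 (adjusted permutation p 0.00108 and 0.00185), and r = 0.73 without the 2. Hearts with more macrophage marker RNA than their group carried more mRNA of all 4 raised enzymes. An r as high was reached by 5.11%, 5.96%, 6.23% and 11% of all tested genes for Psat1, Phgdh, Mthfd1l and Mthfd2.

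With the sum of 12 activated fibroblast markers the 4 genes gave r = 0.78 (Psat1), 0.61 (Phgdh), 0.73 (Mthfd1l) and 0.66 (Mthfd2), and all 4 passed by r and rho. An r as high was reached by 6.12%, 15.1%, 9.03% and 12.6% of tested genes. With the sum of 14 cardiomyocyte markers the sign was the opposite. Mthfd2 gave r = -0.81 and rho = -0.72 (adjusted permutation p 0.000154 and 0.00054), and r = -0.72 without the 2 farthest hearts. Psat1 gave r = -0.78, Mthfd1l -0.78 and Phgdh -0.48, and Shmt2 gave 0.60. An r as low was reached by 3.05% of tested genes for Mthfd2, 4.26% for Psat1, 4.36% for Mthfd1l and 19% for Phgdh, and one as high as that of Shmt2 by 11.8%. With the level of Oga the same 5 genes gave r from -0.14 to 0.26 and with the total count -0.037 to 0.21, and neither passed for any of the 5. The Oga values for these 5 moved when the 2 libraries named above were left out with the group means unchanged. Then r was -0.46 for Phgdh, -0.22 for Psat1, -0.36 for Mthfd1l, -0.31 for Mthfd2 and 0.13 for Shmt2, which were not tested. Mthfd1, not among the 5, gave r = 0.41 with Oga (adjusted permutation p 0.1135) and rho = 0.62 (adjusted p 0.00291), so it passed by rho alone. Without the 2 libraries its r was 0.585, which was not tested. The mitochondrial share of counts also moved with Phgdh (r = -0.73, rho = -0.65) and Mthfd1l (r = -0.52, rho = -0.61). In CON hearts 3 of 54 such relations passed, Phgdh with macrophage markers (r = 0.53, rho = 0.62) and Psat1 with the mitochondrial share (r = -0.63, rho = -0.54) and with cardiomyocyte markers (r = 0.60, rho = 0.50), against 15 of 54 in dnOGAh. Without the CON library that stood apart, ZT4 replicate 4, and with the group means unchanged, these r were 0.50, -0.45 and 0.38. The genotypes were not tested against each other in these relations, and the part of cell composition in the genotype differences was not tested.

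**Figure D3:**
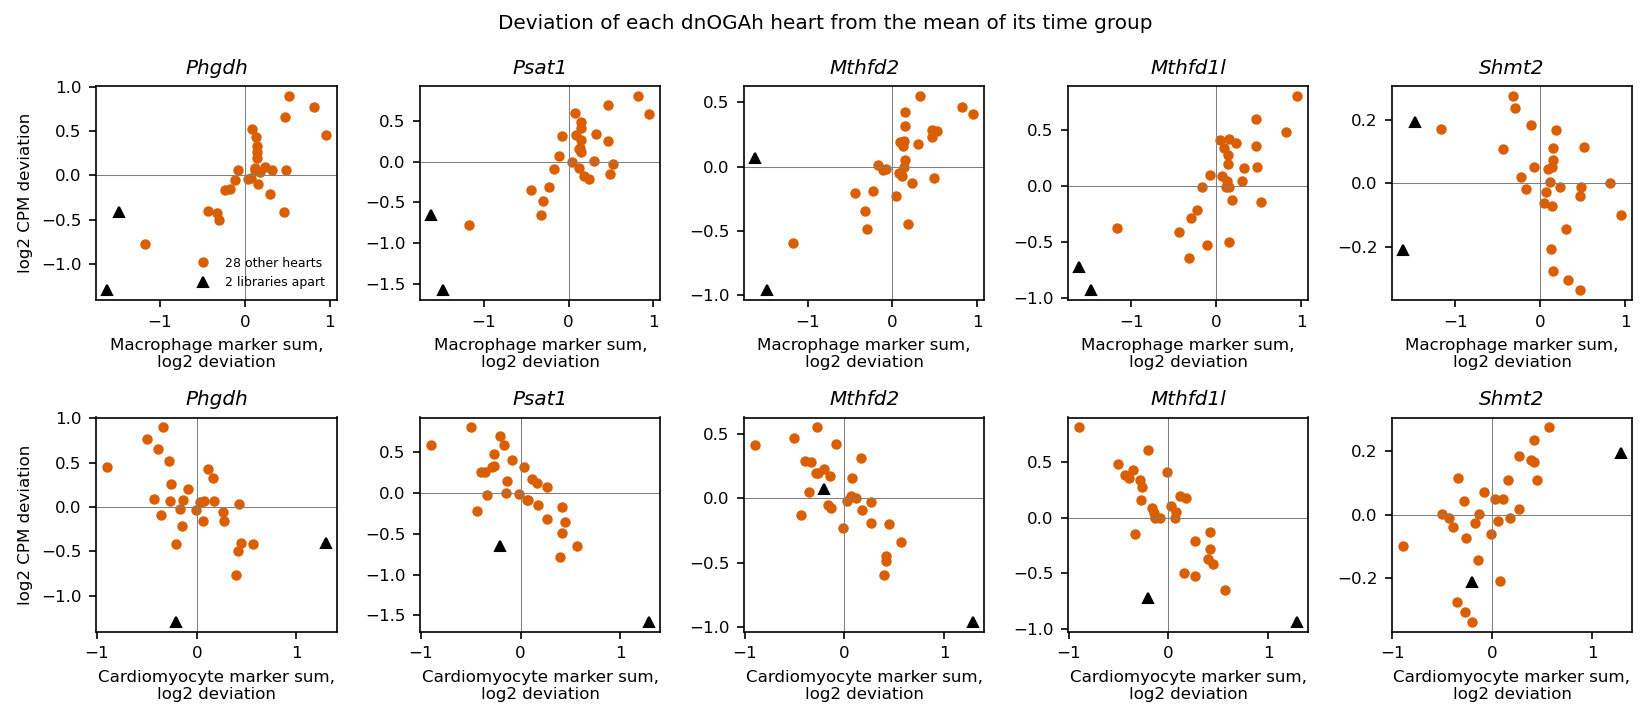
Deviation of log2 CPM of 5 enzyme mRNAs in each dnOGAh heart from the mean of its time group (vertical axes) against the deviation of the log2 sum of 12 macrophage markers (top) and 14 cardiomyocyte markers (bottom). Each circle is 1 of 28 hearts, and triangles are the ZT12 replicate 3 and ZT4 replicate 4 libraries. Phgdh, Psat1, Mthfd2 and Mthfd1l climb with the macrophage sum and fall with the cardiomyocyte sum, and Shmt2 climbs with the cardiomyocyte sum.

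Between the genotypes those markers differed as well, in a comparison where 38.8% of all tested genes were higher and 31.9% lower. Of 12 macrophage and monocyte markers 11 were higher in dnOGAh (median log2 fold change 2.702), with sums of 323 to 642 CPM in CON and 700 to 4395 in dnOGAh. Of 12 activated fibroblast markers 11 were higher (median 3.77), with sums of 362 to 709 against 510 to 8716 CPM. The dnOGAh ranges include ZT12 replicate 3, whose log2 deviation from its group was -2.84 for the activated fibroblast sum. For the macrophage sum it deviated by -1.48, and dnOGAh ZT4 replicate 4 by -1.62. All 14 cell cycle genes were higher (median 2.76), and 8 of 10 lymphocyte markers were (median 3.78), the latter at sums of 1.19 to 6.11 against 5.56 to 72.6 CPM. Of 8 resident fibroblast markers 6 were higher and 2 lower (median 0.44). All 14 cardiomyocyte markers were lower (median -1.22), and so were all 10 endothelial markers (median -0.64). The 3 genes that differed most were Ccr2, Fcgr1 and Cd68 among macrophage markers, Tnc, Timp1 and Cthrc1 among activated fibroblast, Nkg7, Cd3e and Cd8a among lymphocyte, Ccnb1, Birc5 and Bub1 among cell cycle, Col15a1, Lum and Scara5 among resident fibroblast, Ckm, Pln and Myl2 among cardiomyocyte and Kdr, Tie1 and Cldn5 among endothelial genes. Every macrophage marker had counts in every heart, while Cthrc1 and each lymphocyte marker were at 0 in some CON hearts. In RNA of mixed heart cells, fewer cells of a type and less RNA per cell cannot be told apart, and their part in the levels of the 9 enzymes was not tested.

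The rest of folate metabolism was mixed. Of 16 other folate enzymes and carriers, 8 were higher in dnOGAh hearts, 3 lower and 5 not called, with a median log2 fold change of 0.39. Over all tested genes 38.8% were higher and 31.9% lower. The largest differences were in folate receptors and in nucleotide synthesis: Folr1 rose from 0.0852 ± 0.146 to 1.05 ± 0.483 CPM (SD, n = 30), with a log2 fold change of 4.29 (SE 0.33, adjusted p = 3.17e-17). Tyms, thymidylate synthase, went from 3.81 ± 3.91 to 10.4 ± 3.31 CPM (log2 fold change 1.59, SE 0.15, adjusted p = 1.96e-14), and Folr2 from 1.18 ± 0.571 to 2.69 ± 1.07 (1.14, SE 0.19, adjusted p = 7.06e-07). Folr2 is also known as a gene of resident macrophages. Aldh1l1, the cytosolic counterpart of Aldh1l2, was lower (-0.68), as was Slc25a32, the mitochondrial folate carrier (-0.27).

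Most of the listed genes that use or supply one-carbon units beyond folate were called lower, as were 31.9% of all tested genes. The lists are small, and their counts were not tested against that share. In glycine cleavage and mitochondrial glycine donors 5 of 7 tested genes were lower and 2 higher (median -0.26). Gnmt, glycine N-methyltransferase, fell from 3.87 ± 1.13 to 0.941 ± 0.617 CPM (-2.12, SE 0.16, adjusted p = 3.26e-17), while Gldc, the decarboxylase of the cleavage system, rose from 0.339 ± 0.479 to 0.783 ± 0.436 (1.4998, SE 0.36, adjusted p = 0.000209). Chdh, choline dehydrogenase, was at 0.135 ± 0.170 CPM in CON and 0.288 ± 0.249 in dnOGAh (1.20, adjusted p = 0.00848). Of 9 tested genes of the methionine cycle and transsulfuration 5 were lower, 4 were not called and 0 were higher (median -0.16). Mtr, methionine synthase, which takes its methyl group from folate, fell from 124 ± 26.2 to 49.97 ± 16.3 CPM (-1.31, SE 0.091, adjusted p = 6.03e-19). Cth, cystathionine gamma-lyase, fell from 2.10 ± 1.06 to 0.416 ± 0.389 CPM (-2.36, SE 0.30, adjusted p = 7.12e-10), and Mat2b was lower by a log2 fold change of -0.48. Of 6 genes of purine synthesis, which draws formyl groups from folate, 4 were lower, with Ppat (-0.56), Adsl (-0.35) and Paics (-0.34) changed most, and 2 were not called.

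Genes assigned to ATF4 outside the serine and folate enzymes were mostly higher, 12 of 17 tested, with 2 lower and 3 not called (median 0.81). Among all tested genes 38.8% were higher and 31.9% lower. Gdf15, a secreted stress signal, rose from 1.302 ± 0.689 to 20.8 ± 10.4 CPM (4.03, SE 0.21, adjusted p = 8.64e-24). Atf3 rose from 6.01 ± 3.37 to 42.9 ± 9.89 CPM (2.88, SE 0.15, adjusted p = 4.64e-24), and Slc7a11, the cystine transporter, was at 0.0402 ± 0.0797 CPM in CON and 0.310 ± 0.191 in dnOGAh (2.74, SE 0.41, adjusted p = 3.95e-08). The list was not uniform: Trib3 and Chac1, other genes assigned to ATF4, read 3.84 ± 1.56 and 3.82 ± 2.05 CPM in CON and 3.94 ± 0.984 and 3.14 ± 1.16 in dnOGAh and did not pass the test. The 2 lower genes were Vldlr, a lipoprotein receptor, which went from 178 ± 28.1 to 80.3 ± 22.2 CPM (-1.15, adjusted p = 2.02e-19), and Atf5 (-0.31).

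**Figure D4:**
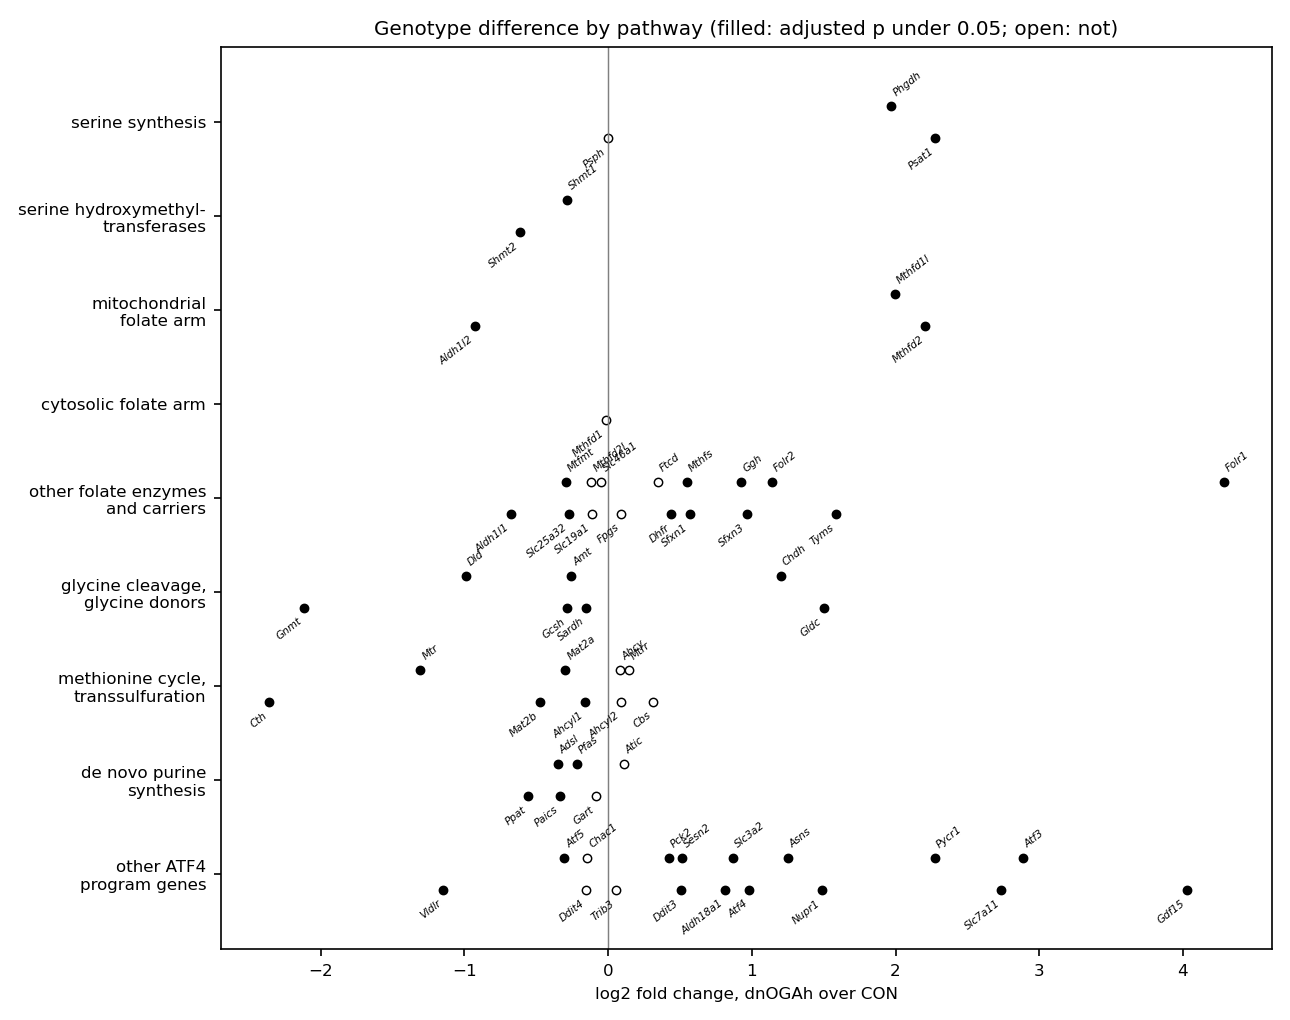
The log2 fold change of dnOGAh over CON (horizontal axis) for every tested gene of 9 gene lists (rows), filled where the adjusted p was under 0.05 and open where it was not, over 30 hearts a genotype. The methionine and purine rows hold filled points to the left of 0 alone, whereas serine synthesis and the ATF4 row reach far to the right.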

How the data were processed

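Heart RNA was sequenced in 60 libraries (30 CON, 30 dnOGAh, 5 per genotype and time). The study's methods describe RNA extraction from both ventricles. The label ZT24 was read as ZT0. Per the study's methods and the submitters' processing notes, libraries were made from poly(A) RNA with a directional NEBNext Ultra II kit, read as paired 75-base ends, trimmed with Trim Galore 0.6.7, aligned with STAR 2.7.10b to GRCm39 and counted with HTSeq 2.0.2. The annotation release and strand setting are not given in the sources used here. The deposited values are whole-number counts per Ensembl gene, not normalised by the authors, and 5 summary rows of the counter were left out (reads in no feature 3.61% to 14.3%, ambiguous 3.14% to 7.13%). Gene symbols came from the reference table for 52093 of 53700 rows.

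Counts were scaled by TMM, filtered with filterByExpr (minimum count 10) and tested with edgeR 4.0.16 (quasi-likelihood, 12 groups of genotype and time, Benjamini-Hochberg over 18119 genes). SEs were taken from the F statistic. The genotype difference is the mean of the 6 time-wise differences. Rhythms used JTK cycle with a 24 h period, as in the study's methods (q under 0.05), and cosine fits to log2 CPM (prior count 2). Correlations used 100000 permutations, for which the smallest p is 1e-05. The libraries are labelled as separate samples and taken from separate hearts. Genes named were the 9 enzymes, up to 3 genes with the largest change per other list, every gene past 2-fold in the folate, glycine, methionine and purine lists, and the 3 most like profiles for Mthfd1l, Phgdh and Mthfd2. Other genes named were chosen after their values were seen. Members and lists were chosen with earlier results of these data known. Alternatives were other scalings, filters and tests (DESeq2 1.42.0), a replicate block, and libraries left out. The code was tested on simulated data. A gene of the folate list is not reported here.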

Additional observations from a re-analysis of the deposited data

Results flagged for a closer look

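Among 108 groups of 5 hearts (9 genes in 12 groups), 3 held a heart far from the other 4 by a gap test that flags about 1 group in 20 by chance. Shmt1 in dnOGAh ZT20 replicate 2 was 1.94 CPM, where the other 4 hearts read 7.31 to 8.44. Mthfd1 in dnOGAh ZT4 replicate 4 was 12.4 CPM against 27.9 to 31.3, in the library with 66.0% mitochondrial counts. Psph in CON ZT8 replicate 1 was 11.0 CPM against 6.46 to 7.76.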

How the results depend on the processing

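All 135 fold changes of members under alternative settings kept their side of the threshold. Those of members called higher or lower also kept their direction. Psph and Mthfd1, which were not called, ran on both sides of 0, from -0.034 to 0.058 and from -0.044 to 0.016. Of 208 counts of members 197 were equal to the count reported and 4 moved by more than 1.5 times. The 24 h amplitudes have no sign or threshold and were set against the spread between hearts, which is wide: that of Shmt1 in dnOGAh was 0.13 and ran from 0.0051 to 0.19. Of 810 calls at single times 15 changed, in Shmt1, Mthfd1l, Phgdh and Aldh1l2. The count of members whose 24 h rhythm differed between genotypes was 0 in the fit reported and 1 (Mthfd1l) with no filter on low counts, without the 3 libraries that stood apart, and with DESeq2. The count with a time effect in CON hearts was 1 and became 2 (Phgdh and Mthfd1l) with DESeq2. The cause was not tested. With no filter 36713 genes were tested and the median log2 fold change of all genes moved by 0.17, with 9092 genes higher and 5648 lower (61.7% of calls higher against 54.9%), and the counts of members higher and lower were 4 and 3. Other settings moved that median by at most 0.043 on the log2 scale. With each replicate number left out, the count higher was 4, the count lower 3, and the count higher at ZT12 ran from 2 to 4. The replicate numbers were not taken to pair the hearts, which would have needed every pair above 0.1: over 30 pairs of equal number the deviations correlated from -0.098 to 0.55 (median 0.033), and the 5 above 0.1 were the 5 pairs at ZT4 (0.17 to 0.55). The ZT4 group means included replicate 4 of each genotype, with 77.6% (CON) and 66.0% (dnOGAh) mitochondrial counts. The part of these libraries in the ZT4 values was not tested. With the replicate block 7037 genes were higher and 5785 lower, the members called were 4 and 3, and Mthfd1l had a log2 fold change of 2.01. The low counts of Mthfd1l (median 13.5 reads in CON), Phgdh (22.5) and Aldh1l2 (27) limit their precision. The lowest Phgdh value in CON, 0.0541 CPM, was 1 read. At ZT20 the Shmt1 call was also lost without a filter (adjusted p = 0.062), without replicate 2 (0.0806) or 3 (0.0593), and with library number as a covariate (0.0555). Without dnOGAh ZT20 replicate 2, an alternative chosen after seeing the data as was leaving out dnOGAh ZT12 replicate 3, Shmt1 was called lower at ZT8 (adjusted p = 0.0341).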
